A study of Mus musculus with 8 samples.

Results

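The 10 genes described here encode the enzymes that make and inactivate prostaglandin E2 (PGE2) and its 4 receptors: Ptgs1, Ptgs2, Ptges, Ptges2, Ptges3, Ptger1, Ptger2, Ptger3, Ptger4 and Hpgd. They were found by symbol among the 49315 Ensembl gene IDs of a bulk RNA-seq count table, and all 10 were present and passed the filter on low counts. The knockout group (KO) held 4 libraries of calvaria (the skull's flat roof bones) from female C57BL6 mice labelled Girk3 knockout or Girk3-/-. The wild-type group (WT) held 4 libraries of the same tissue, sex and strain, and mice of both groups were 2 to 3 days old. Girk3 is a subunit of G protein-gated potassium channels, and the series concerns bone mass after its loss. Neither the deleted segment nor the origin of the allele is stated in the labels, and the series title speaks of global deletion. No label says whether libraries shared a litter. The p-values set the group difference against the spread within each group of 4 libraries, and may not extend to other litters.

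PGE2 is a lipid signal made from arachidonic acid, which phospholipases cut from membranes. The cyclooxygenases encoded by Ptgs1 and Ptgs2 turn it into an unstable intermediate, and terminal synthases turn that into PGE2. Ptgs1 is the more constitutive form, and Ptgs2 is induced within hours by cytokines, growth factors and mechanical load, also in osteoblasts. PGE2 acts through the receptors EP1 to EP4, encoded by Ptger1 to Ptger4. In bone it is known both to stimulate formation and, through RANKL on cells of the osteoblast lineage, to favour osteoclasts.

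Ptgs2 was the only one of the 10 genes to pass the test, and it was lower in KO. Its promoter is shown beside that of Ptgs1 because these enzymes catalyse the same step and their values differed in pattern. The sequences are RefSeq's for GRCm38.p6, from 250 bases before to 50 bases after the annotated start, 5′ to 3′ on the plus strand. They cover chr1:150099781-150100080 for Ptgs2 and chr2:36230176-36230475 for Ptgs1, and capitals mark matches to the motifs searched.
Ptgs2: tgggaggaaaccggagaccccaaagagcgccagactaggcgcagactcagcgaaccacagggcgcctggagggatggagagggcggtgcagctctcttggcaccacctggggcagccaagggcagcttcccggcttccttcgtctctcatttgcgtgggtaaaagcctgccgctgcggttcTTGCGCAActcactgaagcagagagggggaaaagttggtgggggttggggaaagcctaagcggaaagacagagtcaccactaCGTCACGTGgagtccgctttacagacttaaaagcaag
Ptgs1: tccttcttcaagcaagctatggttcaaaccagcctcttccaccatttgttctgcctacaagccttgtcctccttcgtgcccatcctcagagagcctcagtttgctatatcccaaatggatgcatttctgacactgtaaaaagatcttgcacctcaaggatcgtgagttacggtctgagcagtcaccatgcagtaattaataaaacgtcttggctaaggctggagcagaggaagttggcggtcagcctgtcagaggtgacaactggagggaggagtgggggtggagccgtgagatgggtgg
The motifs were the cAMP response element TGACGTCA and its core TGACG, the E-box CACGTG, the C/EBP palindrome TTGCGCAA, the AP-1 motif TGANTCA and the TATA motif TATAAA, each on both strands. In the Ptgs2 window TTGCGCAA began 69 bases before the annotated start. The core of the cAMP response element lay on the minus strand, read as CGTCA from base 14 (the annotated start being base 1), and shared its last bases with an E-box that began at base 17. The Ptgs1 window held none of the 6 motifs. Of 32851 promoter windows of this length, 0.183% held TTGCGCAA, 20.8% TGACG and 7.15% CACGTG. The table held a window for 9 of the 10 members, all but Ptger1. Among the others Ptges2 held CACGTG, Ptges3 held CGTCA and Hpgd held TATAAA. These matches are letters in a window and say nothing of binding in calvaria.

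The 8 libraries held between 35.4 M and 54.3 M counts each. Levels are in CPM, counts divided by the TMM-scaled library total in M, and 1 count was worth at most 0.0283 CPM before that scaling. Kcnj9, which encodes Girk3, held 2, 5, 7 and 9 counts in the libraries labelled KO and 0, 0, 1 and 4 in the WT libraries, so it does not check the labels, and KO means the libraries labelled so. Bone-forming cells were well represented, with Col1a1 at 78420 ± 13178 CPM in KO and 85440 ± 7435 CPM in WT (SD, n = 4 each). Skeletal muscle RNA varied widely: the summed level of 10 muscle markers was 53.4 and 157 CPM in KO replicates 2 and 3 and 702 and 2724 CPM in the other KO libraries, and 21.5 CPM in WT replicate 3 and 1364 to 1849 CPM in the other WT libraries.

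The level of the pathway's genes spanned a wide range when counts were set against exon length. Hpgd, the dehydrogenase that begins the inactivation of PGE2, stood highest at 69.4 ± 8.89 CPM per kb of exon in KO and 76.1 ± 8.02 in WT (SD, n = 4 each). Ptges3, a synthase also known as a co-chaperone of Hsp90, followed at 51.0 ± 5.81 in KO and 55.9 ± 4.02 in WT. Ptges, the inducible microsomal synthase, came next at 4.69 ± 0.499 in KO and 4.22 ± 0.309 in WT, then Ptges2 at 2.43 ± 0.409 in KO and 2.64 ± 0.189 in WT. On the same per-kb scale Ptgs1 was at 2.24 ± 0.064 in KO and 2.27 ± 0.0727 in WT, and Ptgs2 at 0.61 ± 0.139 in KO and 1.12 ± 0.174 in WT. All 4 receptor genes had means below 1 CPM per kb, in the order Ptger1, Ptger4, Ptger3 and Ptger2 in both groups.

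In KO the ranges of neighbouring genes overlapped between Ptges2 and Ptgs1, Ptger1 and Ptgs2, Ptgs2 and Ptger4, and Ptger3 and Ptger2. In WT they overlapped between Ptgs2 and Ptger1, Ptger1 and Ptger4, Ptger4 and Ptger3, and Ptger3 and Ptger2, while Ptges2 stayed above Ptgs1. Ptgs2 thus took the seventh place in KO, where the range of Ptger1 above it overlapped its own, and the sixth in WT. Lengths are those of GENCODE mouse release 21 on the same build, which may not be the annotation used for counting. No source gives the strand setting of the counting, and the level of Ptger1 is the least certain for that reason. Ptges3 can share reads with its pseudogene Ptges3-ps, which held 304 to 594 counts.

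**Figure D1:**
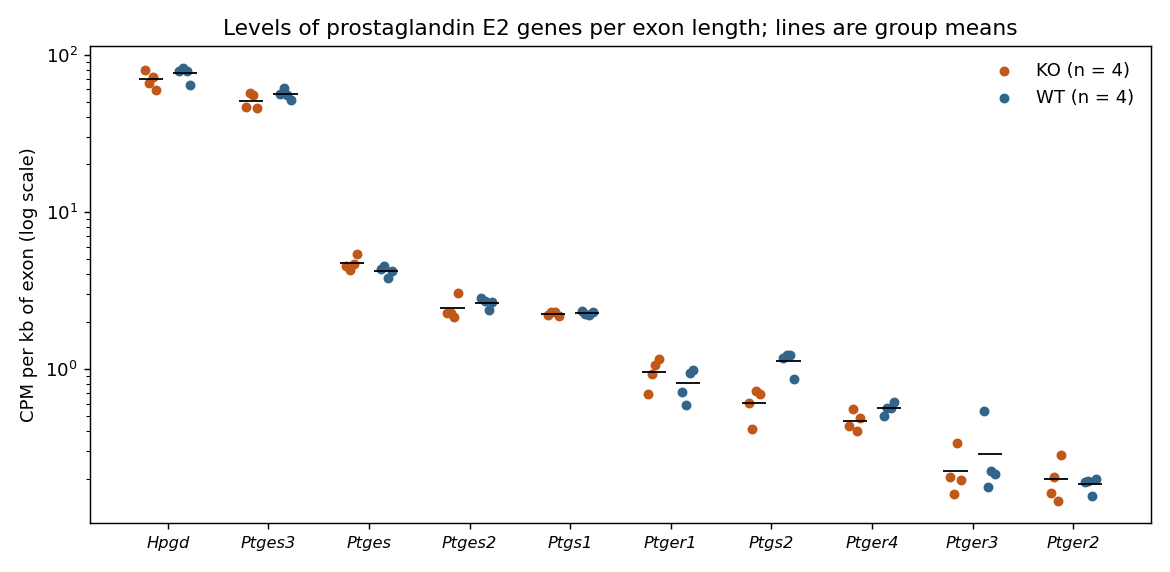
Level of each gene in CPM per kb of exon on a log axis, with 1 point per library, KO left of WT, and lines at the group means (n = 4 each). Hpgd and Ptges3 stand above 45 in every library, and the receptor genes lie at or below 1.16.

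Ptgs1 (chromosome 2, 36230426 to 36252272, plus strand, GRCm38/mm10 as for all positions here) was nearly level across the 8 libraries. It held 8.57, 8.92, 8.88 and 8.40 CPM in KO replicates 1 to 4 and 9.11, 8.63, 8.52 and 8.99 CPM in WT replicates 1 to 4. The groups overlapped in part, with KO replicate 4 lowest and WT replicate 1 highest, and the highest library was 1.06 times the lowest in KO and 1.07 times in WT. The log2 fold change was -0.02 ± 0.0869 (SE, KO over WT), with a 95% interval from -0.21 to 0.17 (edgeR adjusted p = 0.935). Platelets carry Ptgs1, and the summed level of 5 platelet and megakaryocyte markers was 26.5 to 37.0 CPM in KO and 28.2 to 38.3 CPM in WT. Most of that sum was Pf4, at 19.8 CPM in KO and 22.9 CPM in WT. Of 4 markers tested none was called by edgeR, and 2 had a log2 fold change below 0. Ppbp was at 1.89 ± 1.75 CPM in KO and 0.528 ± 0.132 CPM in WT (SD, n = 4 each, edgeR adjusted p = 0.181). The part of these markers in the Ptgs1 level was not tested.

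Ptgs2 (chromosome 1, 150100031 to 150108227, plus strand, ENSMUSG00000032487) fell in KO to 0.542 of its WT level. It held 2.79, 1.90, 3.32 and 3.16 CPM in KO replicates 1 to 4, from 107 to 147 counts, against 5.40, 5.60, 5.61 and 3.95 CPM in WT replicates 1 to 4, from 191 to 251 counts. Every KO library lay below every WT library, and the gap was narrowest between KO replicate 3 and WT replicate 4. Ptgs2 lies on the same chromosome as the targeted gene Kcnj9, 22.2 Mb away. The means were 2.79 ± 0.635 CPM in KO and 5.14 ± 0.797 CPM in WT (SD, n = 4 each). The log2 fold change was -0.88 ± 0.191 (SE), with a 95% interval from -1.30 to -0.47 and an adjusted p of 0.0441 by edgeR's quasi-likelihood test over 17743 genes.

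The Ptgs2 call was close to the threshold. It was lost without any 1 of KO replicates 1, 2 and 3 and WT replicates 1, 2, 3 and 4, and kept without KO replicate 4, with adjusted p from 0.0358 to 0.138 and log2 fold changes from -0.99 to -0.73. It was also lost when plain library totals replaced the TMM scaling (adjusted p = 0.0586). Without the 3 libraries poorest in muscle RNA (KO replicates 2 and 3 and WT replicate 3), an alternative chosen after seeing the data, the log2 fold change was -0.74 ± 0.217 (adjusted p = 0.432). DESeq2 gave -0.88 (adjusted p = 0.000962) and limma-voom -0.92 (adjusted p = 0.0408). Apart from the settings that left out 1 library, 7 of 12 alternatives kept the call. The skeletal muscle score as a covariate over all libraries was among those 7.

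**Figure D2:**
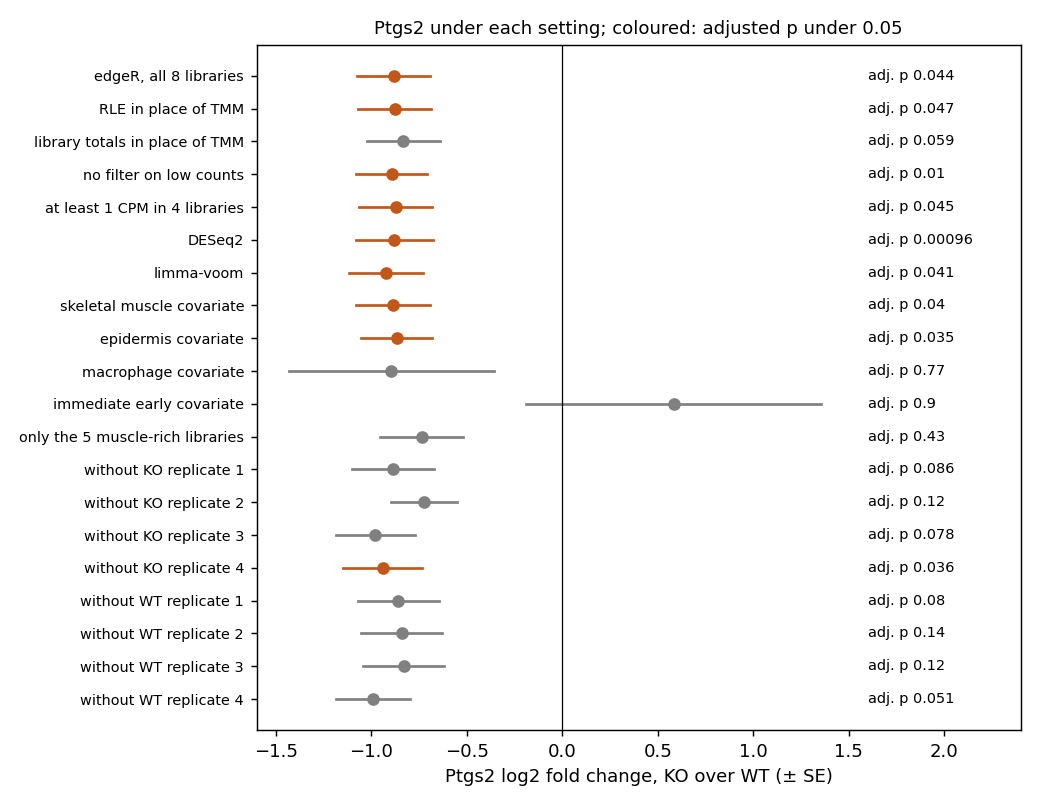
Log2 fold change of Ptgs2, KO over WT, under each setting but the replicate block, as a point with a bar of ± 1 SE. The adjusted p stands beside it, and colour marks an adjusted p under 0.05. The replicate block, where the call was lost, is not drawn. The value stays between -0.99 and -0.73 except with the immediate early score as covariate, where it is 0.58 ± 0.774.

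Levels of macrophage markers and of immediate early genes were also lower in KO, with no overlap of their summed levels between the groups. Over all 17743 tested genes 1.32% were called and 8886 had a log2 fold change below 0. The KO and WT ranges did not overlap for 10.6% of single genes, 5.96% with KO below WT. Of 12 macrophage markers, all tested, 3 fell, none rose and 12 had a log2 fold change below 0, and their summed level was 492 to 578 CPM in KO and 634 to 817 CPM in WT. The 3 were Lyz2, Cx3cr1 and Ccr2, and no marker was at 0 in all libraries. Of 10 immediate early genes, a list without Fos, Jun and Egr1 and all tested, 5 fell, none rose and 9 were below 0, with a summed level of 105 to 129 CPM in KO and 161 to 189.6 CPM in WT. The 5 were Fosb, Ier2, Ier3, Atf3 and Dusp1, named after their values were seen like the 3 above. With the macrophage score as a covariate Ptgs2 was at -0.90 ± 0.538 (edgeR adjusted p = 0.765), and with the immediate early score, an alternative chosen after seeing the data, at 0.58 ± 0.774 (adjusted p = 0.9). Both scores separated the genotypes completely and edgeR then called 0 genes at all (1254 and 918 at an unadjusted p under 0.05), so score and genotype cannot be told apart here. In whole tissue, fewer cells of a type and less RNA per cell cannot be told apart either. The summed level of 7 osteoblast markers, mostly Col1a1, was 81085 to 113313 CPM in KO and 97170 to 111703 CPM in WT. Of the 7, 1 was called lower, Bglap, and 5 had a log2 fold change below 0. Their score, the mean log2 CPM, was 10.87 to 11.1209 in KO and 11.1242 to 11.18 in WT. By that score KO also lay below WT throughout, though narrowly, and its part in the Ptgs2 result was not tested.

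Of the 10 members, 1 fell and none rose over all tested genes, by edgeR, DESeq2 and limma-voom alike. At an unadjusted p under 0.05 there was 1, Ptgs2 again, against 17.4% of all tested genes (9.11% lower and 8.29% higher). Over all 17743 tested genes 1.32% were called, 0.874% lower and 0.445% higher, and the split of calls was 155 lower and 79 higher. With plain library totals it was 99 lower (0.558%) and 113 higher (0.637%). DESeq2 called 5.37% of the genes and limma-voom 1.29%. The KO and WT ranges did not overlap for 1 of 10 members, against 10.6% of all tested genes, 5.96% with KO below WT and 4.63% with KO above. The median log2 fold change was -0.13 over the members and -0.000295 over all tested genes.

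**Figure D3:**
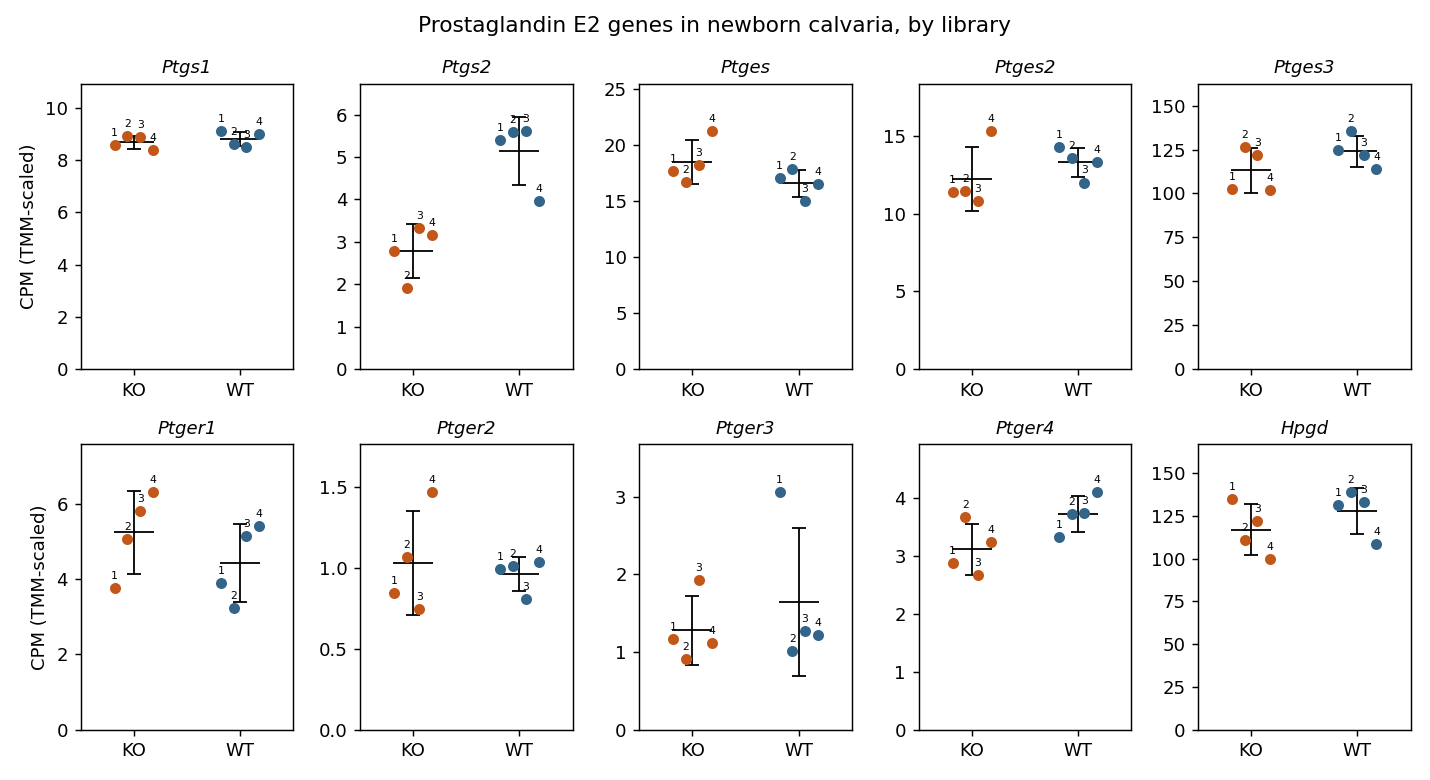
TMM-scaled CPM of the 10 genes, with 1 numbered point per replicate, KO left of WT, and bars at the mean ± SD (n = 4 each; axes start at 0). Ptgs2 is the only panel in which the groups do not overlap.

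The 3 terminal synthase genes showed small differences that did not pass. Ptges (chromosome 2, 30889471 to 30929863, minus strand) held 17.6, 16.7, 18.2 and 21.2 CPM in KO and 17.0, 17.8, 14.96 and 16.5 CPM in WT. Its highest library was KO replicate 4 and the groups overlapped, with a log2 fold change of 0.15 ± 0.0922 (95% interval -0.05 to 0.35, edgeR adjusted p = 0.42). Ptges2, encoding another membrane-associated synthase (chromosome 2, 32395896 to 32405772, plus strand), held 11.4, 11.5, 10.8 and 15.3 CPM in KO and 14.3, 13.6, 12.0 and 13.4 CPM in WT. KO replicates 1 to 3 lay below all WT libraries and KO replicate 4 above them, so that the log2 fold change was -0.12 ± 0.115 (95% interval -0.37 to 0.13, adjusted p = 0.627). KO replicate 4 also had reads in the most genes, 28520 against 24545 to 25729 in the other libraries; its part in the Ptges2 value was not tested beyond leaving it out, which gave -0.24 (adjusted p = 0.146). Ptges3 (chromosome 10, 128058954 to 128077272, plus strand) ranged from 102 to 126 CPM in KO and from 114 to 135 CPM in WT, with a log2 fold change of -0.13 ± 0.0886 (95% interval -0.33 to 0.06, adjusted p = 0.467).

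Of the receptor genes, none passed the test in edgeR, DESeq2 or limma-voom, and none had an unadjusted p under 0.05 in edgeR. Ptger4 (chromosome 15, 5206661 to 5244187, minus strand) encodes EP4, which couples to Gs and raises cAMP. It held 2.88, 3.67, 2.67 and 3.24 CPM in KO and 3.33, 3.73, 3.73 and 4.10 CPM in WT. Only KO replicate 2 reached into the WT range, and the log2 fold change was -0.26 ± 0.149 (95% interval -0.58 to 0.07, edgeR adjusted p = 0.397). Ptger2, for the other Gs-coupled receptor EP2 (chromosome 14, 44988195 to 45003820, plus strand), was the least abundant with 33 to 60 counts in KO and 36 to 50 in WT. Its log2 fold change was 0.10 ± 0.256, with a 95% interval from -0.46 to 0.65 (edgeR adjusted p = 0.883).

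Ptger3, for the Gi-coupled receptor EP3 (chromosome 3, 157566892 to 157645888, plus strand), had the largest replicate spread of the members in both groups. It held 1.17, 0.905, 1.92 and 1.12 CPM in KO and 3.06, 1.01, 1.27 and 1.22 CPM in WT. WT replicate 1 was the highest library, followed by KO replicate 3, and without WT replicate 1 the log2 fold change was 0.12 (edgeR adjusted p = 0.879), against -0.36 ± 0.363 with it (95% interval -1.16 to 0.43, adjusted p = 0.649). The summed level of 7 neural markers was also highest in WT replicate 1, at 62.0 CPM, against 30.5 to 41.7 CPM in KO and 31.1 to 33.6 CPM in the other WT libraries; its part in the Ptger3 level was not tested. Ptger1, for the calcium-mobilising receptor EP1 (chromosome 8, 83666678 to 83672753, plus strand), held 3.77, 5.06, 5.81 and 6.31 CPM in KO and 3.89, 3.22, 5.14 and 5.40 CPM in WT. The highest library was in KO and the lowest in WT and the groups overlapped, with a log2 fold change of 0.24 ± 0.198 (95% interval -0.19 to 0.67, adjusted p = 0.559).

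Hpgd (chromosome 8, 56294585 to 56321043, plus strand) was abundant in all libraries and did not pass. It held 135, 111, 122 and 99.9 CPM in KO and 132, 139, 133 and 108 CPM in WT. The fourth replicate was lowest in each group, and the log2 fold change was -0.13 ± 0.102 (95% interval -0.35 to 0.09, edgeR adjusted p = 0.539).

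**Figure D4:**
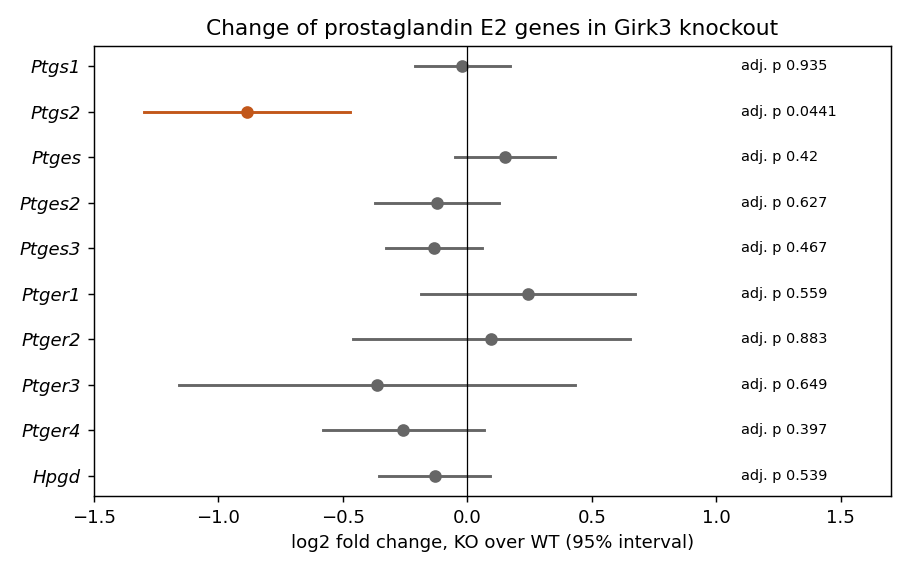
Log2 fold change of each gene, KO over WT, with its 95% interval and the edgeR adjusted p beside it (4 libraries a group). The interval of Ptgs2 runs from -1.30 to -0.47, and the intervals of the other 9 genes include 0.

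Ratios within a library, which do not depend on the scaling between libraries, are given as a description. There were 0.326, 0.213, 0.374 and 0.375 Ptgs2 counts per Ptgs1 count in KO replicates 1 to 4 and 0.593, 0.649, 0.659 and 0.440 in WT replicates 1 to 4. The KO ratios all lay below the WT ratios, with log2 means of -1.67 ± 0.387 in KO and -0.79 ± 0.271 in WT (SD, n = 4 each). Ptges counts per Hpgd count ran from 0.131 to 0.212 in KO and from 0.112 to 0.152 in WT, and Ptger4 counts per Ptger2 count from 2.20 to 3.58 in KO and from 3.36 to 4.64 in WT. Both of these pairs of ranges overlapped.

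Replicate spread differed among the members. In KO the coefficient of variation was 2.86% for Ptgs1, 22.8% for Ptgs2, 31.1% for Ptger2 and 34.7% for Ptger3, where counting error alone gives 4.998%, 8.95%, 14.7% and 13.2% for one library. In WT it was 3.20% for Ptgs1, 15.5% for Ptgs2, 10.95% for Ptger2 and 58.0% for Ptger3, against counting errors of 5.03%, 6.61%, 15.2% and 11.7%.

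The genes whose profile over the 8 libraries was most like that of Ptgs2 were Jund, Apol9a, Socs3, Brinp1 and Dusp10. The measure was the root mean square difference of mean-centred log2 CPM among 14270 genes with a mean of at least 1 CPM, and it was 0.226 for Jund, 0.235 for Apol9a and 0.237 for each of Socs3, Brinp1 and Dusp10, where Ptgs2 itself varied by 0.517 about its mean. Since they were chosen for a profile like that of Ptgs2 over the same libraries, a lower level in KO follows from the choice, and their levels are given with no test. Jund, a member of the AP-1 family, was at 74.9 CPM in KO and 120.6 CPM in WT. Socs3, a feedback inhibitor of cytokine signalling, was at 21.2 CPM in KO and 35.3 CPM in WT. Apol9a was at 1.44 CPM in KO and 2.92 CPM in WT, and Brinp1 at 1.38 CPM in KO and 1.97 CPM in WT. Dusp10, a MAP kinase phosphatase gene, was at 6.30 CPM in KO and 8.96 CPM in WT.

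Around the members, 82 genes of the wider pathway were listed and 72 tested. Of these 7 fell and none rose in edgeR, where 1.32% of all tested genes passed. By DESeq2 11 were lower and 1 higher, with 5.37% of all genes called, and limma-voom 7 lower and none higher, with 1.29%. At an unadjusted p under 0.05 there were 22 in edgeR, a share of 30.6% against 17.4% of all tested genes, with 17 lower and 5 higher, and the median log2 fold change was -0.14. The lists were made with earlier results of these data known, so their counts are a description, and the shares of all tested genes apply to each list below. With plain library totals 6 were called. With the 5 muscle-rich libraries alone, 1 remained called, Il1b.

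Genes that feed or share the cyclooxygenase step gave no call in edgeR or limma-voom. Of 10 tested genes for arachidonate release, 3 had an unadjusted p under 0.05 (median log2 fold change -0.09). Pla2g4a, the cytosolic phospholipase that supplies cyclooxygenases and lies 139 kb from Ptgs2 on chromosome 1, held 23.5, 23.1, 22.7 and 21.8 CPM in KO and 25.5, 26.4, 27.7 and 26.3 CPM in WT. The groups did not overlap, but the difference was small (log2 fold change -0.22 ± 0.0647, edgeR adjusted p = 0.124; DESeq2 adjusted p = 0.0472). The third was Pla2g3, a secreted phospholipase gene, at 0.58 ± 0.262 (adjusted p = 0.279). Pla2g4b was at 0.70 ± 0.21 (edgeR adjusted p = 0.127), and 66.5% of its exon bases overlap another gene on its own strand. Of 7 other prostanoid synthases, 4 other prostanoid receptors and 4 transport and reduction genes, none passed in edgeR, DESeq2 or limma-voom and none had an unadjusted p under 0.05 in edgeR, with medians of -0.13, 0.19 and -0.06. Among them were Tbxas1, thromboxane synthase (-0.27 ± 0.152, adjusted p = 0.374), Hpgds, a prostaglandin D synthase (-0.13 ± 0.121, 0.619), the receptor genes Tbxa2r (0.23 ± 0.172, 0.52) and Ptgdr (0.29 ± 0.248, 0.59), and the transporter genes Slco2a1 (-0.20 ± 0.141, 0.49) and Abcc4 (-0.10 ± 0.0784, 0.533).

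In the lipoxygenase branch, which competes for the same arachidonic acid, none of 8 tested genes passed in edgeR or limma-voom (1 at an unadjusted p under 0.05, median -0.20). Alox5ap, which presents arachidonic acid to the lipoxygenase of leukocytes, held 4.83, 5.43, 3.64 and 5.82 CPM in KO and 10.6, 8.82, 7.20 and 6.54 CPM in WT. KO lay below WT throughout (log2 fold change -0.75 ± 0.179, edgeR adjusted p = 0.0631), and DESeq2 called it lower (adjusted p = 0.00382). It also passed in edgeR without the count filter (adjusted p = 0.0156) and without KO replicate 4 (adjusted p = 0.042). Cysltr1, a leukotriene receptor gene, was at -0.32 ± 0.228 (edgeR adjusted p = 0.505).

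Of 19 genes known to induce or regulate Ptgs2, 4 fell and none rose in edgeR (10 at an unadjusted p under 0.05, median log2 fold change -0.23). DESeq2 called 5 lower and 1 higher and limma-voom 4 lower. Il1b, a cytokine that induces Ptgs2, held 0.152, 0.514, 0.226 and 0.109 CPM in KO, from 4 to 29 counts, against 1.66, 1.13, 1.297 and 1.53 CPM in WT, from 47 to 74 counts. All KO libraries lay below all WT libraries, with a log2 fold change of -2.43 ± 0.4 (edgeR adjusted p = 0.0149), and the call was lost without KO replicate 3 (adjusted p = 0.0572). Fos and Jun encode subunits of AP-1 and Egr1 is an early growth response gene. Fos was at 18.9 ± 0.527 CPM in KO and 51.0 ± 13.8 CPM in WT (SD, n = 4 each), a log2 fold change of -1.43 ± 0.156 (edgeR adjusted p = 0.00358). Jun was at 34.4 ± 5.15 CPM in KO and 70.6 ± 5.34 CPM in WT, a log2 fold change of -1.04 ± 0.0998 (edgeR adjusted p = 0.00064). Egr1 was at 49.7 ± 5.20 CPM in KO and 84.3 ± 10.7 CPM in WT, a log2 fold change of -0.76 ± 0.1 (edgeR adjusted p = 0.00485). Those 3 calls were kept whichever library was left out.

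The NF-kappaB subunit gene Rela was at -0.26 ± 0.0693 (edgeR adjusted p = 0.0965) and Bmp2, a bone morphogenetic protein gene, at 0.27 ± 0.0702 (0.0817); both were called by DESeq2, with adjusted p = 0.0189 and 0.00932. Rela passed in edgeR without KO replicate 4 (adjusted p = 0.048). Of the genes for EP receptor signalling and those that PGE2 or cAMP can induce, 3 of 20 fell and none rose in edgeR. At an unadjusted p under 0.05 there were 8 in edgeR, 6 lower and 2 higher. The direction was mixed over the list, with 12 genes below 0, 8 above and a median of -0.09. DESeq2 called 4 lower and limma-voom 3 lower. The 3 called by edgeR were Il6, Nr4a1 and Tnfsf11. Il6 was at 0.216 ± 0.0531 CPM in KO and 1.41 ± 0.476 CPM in WT (SD, n = 4 each). These Il6 levels rest on few counts, from 7 to 12 in KO and from 30 to 87 in WT. The orphan nuclear receptor gene Nr4a1 was at 11.7 ± 0.273 CPM in KO and 17.6 ± 2.00 CPM in WT. Tnfsf11, which encodes RANKL, was at 12.1 ± 0.877 CPM in KO and 17.6 ± 2.75 CPM in WT. The log2 fold changes of Il6, Nr4a1 and Tnfsf11 were -2.71 ± 0.344, -0.58 ± 0.0918 and -0.54 ± 0.112 (edgeR adjusted p = 0.00359, 0.0121 and 0.0361). The Nr4a1 call was lost without KO replicate 2 (adjusted p = 0.0523), and the Tnfsf11 call without any 1 of KO replicates 1, 2 and 3 and WT replicates 2, 3 and 4 (up to 0.12). The Tnfsf11 call was also lost with plain library totals (log2 fold change -0.48, edgeR adjusted p = 0.0726). Beside Tnfsf11, 7 of 7 osteoclast markers were below 0 and none was called, with a summed level of 3940 to 5993 CPM in KO and 5648 to 8377 CPM in WT; their part in the result was not tested.

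The kinase subunit genes Prkacb and Prkar1a, through which cAMP acts, stood at -0.21 ± 0.0633 and -0.20 ± 0.0713 and did not pass (edgeR adjusted p = 0.132 and 0.174), though DESeq2 called Prkacb lower (adjusted p = 0.026). The macrophage and immediate early marker values given beside Ptgs2 apply to Il1b, Il6, Alox5ap, Fos, Jun, Egr1 and Nr4a1 as well, and their part in these results was not tested beyond the covariates.

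**Figure D5:**
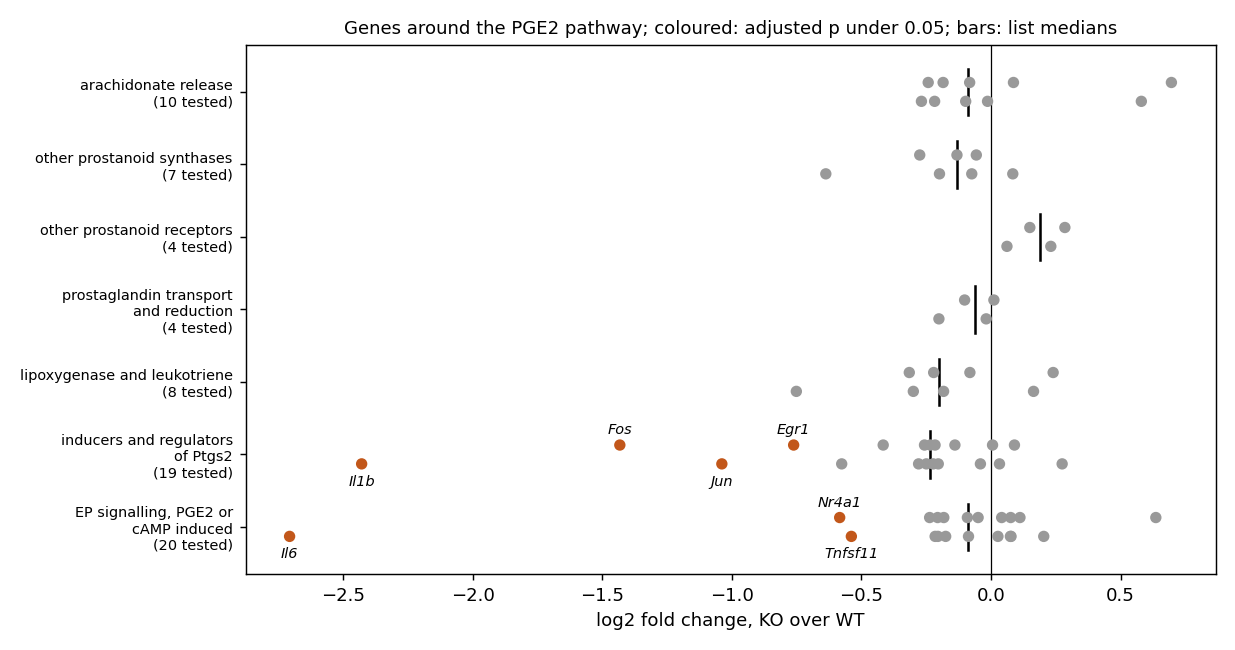
Log2 fold change, KO over WT, of the 72 tested genes around the PGE2 pathway, 1 point per gene, grouped by list with a bar at each list's median; colour marks an edgeR adjusted p under 0.05. The 7 coloured genes, from Il6 at -2.71 to Tnfsf11 at -0.54, all lie in the lists of Ptgs2 regulators and of EP signalling and PGE2 or cAMP induced genes.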

How the data were processed

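RNA was measured in 8 libraries of whole calvaria, made from total RNA with the NEBNext Ultra II kit, per the labels' protocols. Values were deposited as raw, unnormalized counts for each Ensembl ID. STAR 2.5.2b, featureCounts (Subread 1.5.2), bcl2fastq 2.17 and the build mm10 are named in the submitters' processing notes. No source used here gives the annotation or the strand setting. Symbols were found for 48970 of 49315 IDs. Genes passing filterByExpr (minimum count 10, minimum total count 15) numbered 17743. They were tested with edgeR 4.0.16 (R 4.3.3; TMM, robust quasi-likelihood, two-sided, Benjamini-Hochberg over all tested genes, threshold 0.05); SEs come from the fit. DESeq2 1.42.0 and limma-voom (limma 3.58.1) were alternatives. A prior count of 2 entered log2 CPM. The fit was tested on simulated data, where it missed part of the differences put in. At 1.5-fold it found 32 out of 56 such genes. The figure was 49 out of 74 at 2-fold, then 61 out of 66 at 4-fold. It also made 14 false calls, with 17488 genes tested. A gene that did not pass may therefore still differ, and a call may be false. Alternatives changed the scaling or filter, added marker scores as covariates or a replicate block, or left out libraries; the 5 muscle-rich libraries and the immediate early covariate were chosen after seeing the data.

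The members and lists were chosen with earlier results of these data known. Named genes were all members, the called genes of each list with up to 3 others of smallest p, and the 5 genes of profile most like Ptgs2. No sample was left out, and 1 annotation detail is not reported here.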

Additional observations from a re-analysis of the deposited data

Results flagged for a closer look

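In 5 of 72 groups of 4 libraries, over the genes named above, 1 library stood apart from its group; about 3.6 such groups arise by chance. Ptgs2 was at 3.95 CPM in WT replicate 4, against 5.40 to 5.61 CPM in the other WT libraries. Ptges2 was at 15.3 CPM in KO replicate 4, against 10.8 to 11.5 CPM in the other KO libraries. Ptger3 was at 3.06 CPM in WT replicate 1, against 1.01 to 1.27 CPM in the others. Jun was at 78.5 CPM in WT replicate 2, against 66.8 to 68.8 CPM, and Tnfsf11 at 10.8 CPM in KO replicate 1, against 12.4 to 12.7 CPM.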

How the results depend on the processing

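The 234 calls of edgeR became 355 without the count filter, 952 in DESeq2, 126 with the replicate block, 370 with the epidermis covariate, 0 with the macrophage or immediate early covariate (1254 and 918 at an unadjusted p under 0.05) and 8 in the 5 muscle-rich libraries, and 57 to 608 with 1 library left out. The single call among the members became 0 with library totals, the replicate block, either of the macrophage and immediate early covariates, or the 5 muscle-rich libraries, and 0 to 1 with 1 library left out. The 7 wider pathway calls became 12 in DESeq2, 0 with the macrophage or immediate early covariate (8 and 7 at an unadjusted p under 0.05) and 1 in the muscle-rich libraries, and 5 to 9 with 1 library left out. With the replicate block Ptgs2 was at -0.90 ± 0.204 (edgeR adjusted p = 0.103). Same-numbered libraries share only a number: their deviations correlated across genes at 0.26, -0.18, 0.34 and -0.005, and not every library correlated best with its own number. Ptgs1 was at 0.0347 with library totals. With 1 library left out, Ptgs1 ranged from -0.0301 to 0.00267, Ptger2 from -0.11 to 0.222 and Ptger3 from -0.63 to 0.12, with the sign turned without KO replicate 4 for Ptgs1 and Ptger2 and without WT replicate 1 for Ptger3. With the macrophage covariate Ptges2 was at 0.29 and Ptger4 at 0.17. With the immediate early covariate the values were 0.58 for Ptgs2, 0.47 for Ptges2, -0.22 for Ptger1, 0.29 for Hpgd, 0.49 for Tbxas1, 0.27 for Alox5ap, 0.18 for Rela, 0.10 for Prkar1a, 0.18 for Jund, 0.88 for Apol9a and 0.55 for Dusp10. Fewer samples or residual degrees of freedom are part of the left-out, block and covariate settings by construction; otherwise the cause was not tested. All members passed the count filter, so the permutation test for a member below it was not run.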
